A study of Homo sapiens with 4 samples.

Results

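The genes described are 10 transcripts known as feedback regulators of the ERK mitogen-activated protein kinase pathway: SPRY1, SPRY2, SPRY4, SPRED1, SPRED2, DUSP4, DUSP5, DUSP6, ETV4 and ETV5. They were found as every probe set whose platform annotation gives one of these symbols alone, which left 24 probe sets of 54613 that are not controls, and 10 of 19775 named genes. They were proposed with the comparison of the 2 groups already known, so their differences between the groups are given as a description and carry no test. RNA came from SW480, an established colorectal adenocarcinoma line whose tumour is labelled Duke's type B, grown in medium with fetal bovine serum. Of the 4 arrays, 2 were labelled HOXA5 knock down and 2 HOXA5 overexpressing. HOXA5 is a homeobox transcription factor, and the series' design text says that the cells had been transduced for either change. Among the samples analysed here none is an untransduced or vector control, so every difference below is overexpressing minus knock-down and cannot be assigned to either manipulation. The sources used here give neither the constructs nor whether a group was 1 clone or a pool.

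In this pathway, receptor tyrosine kinases activate RAS, and RAS drives a relay of RAF, MEK and ERK kinases. Active ERK switches on genes whose products then restrain the relay. Sprouty and SPRED proteins act between the receptor and RAF, and dual-specificity phosphatases remove the activating phosphates from ERK itself. ETV4 and ETV5 are ETS transcription factors of the PEA3 group that are induced by the pathway and relay its transcriptional output. In intestinal epithelium and in colorectal tumours the pathway is known for its part in proliferation, and transcripts of these feedback genes are widely used as a readout of its activity.

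Values are RMA log2 expression. Array medians were 5.77 to 5.81, and the correlation over all probe sets was 0.997 within a group and 0.991 to 0.993 between groups. The labelled cell type was checked by its markers. The simple-epithelium keratins KRT8 (13.02 ± 0.01 in knock-down and 12.91 ± 0.09 in overexpressing arrays, SD, n = 2) and KRT18 (13.86 ± 0.01 and 13.82 ± 0.04) were abundant, whereas the differentiated colonocyte keratin KRT20 was at 2.97 in both groups. Of the 10 epithelial markers 3 rose on their brightest probe sets in the limma fit by gene, beside 2.74% of all genes. They were EPCAM (log2 difference 5.05), KRT19 (4.38) and CDX2 (0.51). EPCAM read 3.81 and 3.65 with knock-down, under the lower quartiles of these arrays (4.26 and 4.25), against 8.80 and 8.75 with overexpression. KRT19 read 4.74 and 4.65 against 9.08 on both overexpressing arrays. CDH1, another marker of this list, read 5.08 and 4.91 against 5.44 and 5.74 and did not pass (limma adjusted p = 0.052). Not all epithelial markers were therefore abundant in the knock-down arrays. In the limma fit over all probe sets CDX2 did not pass (adjusted p = 0.060), and VIL1, encoding villin, which differed by 0.02 on its brightest probe set, was called higher on 2 others (0.78 and 0.85, limma adjusted p = 0.011 and 0.015). The log2 levels of the brightest probe sets of this list summed to 68.3 to 68.8 with knock-down and 78.8 to 79.3 with overexpression. EPCAM and KRT19 made most of the difference in these sums. The median log2 difference of the 10 markers was 0.08, and 4 were below 0. The part of these marker differences in the results below was not tested. On the brightest probe sets, none of the analysed markers of fibroblasts (6), leukocytes (4 of 5) or endothelium (5) passed an adjusted p of 0.05 in limma. Of them, 1, 0 and 1 had an unadjusted p under 0.05, beside 18.6% of all genes. Their summed levels were 35.1 to 35.4 and 34.8 to 35.5 for fibroblasts, 19.6 to 20.3 and 19.2 to 19.5 for leukocytes, and 28.7 to 28.9 and 28.5 to 29.0 for endothelium, in knock-down and overexpressing arrays. A weaker probe set of the fibroblast gene LUM read 2.48 and 2.66 with knock-down against 4.82 and 4.65 with overexpression and was called higher in the fit over all probe sets (limma adjusted p = 7.93e-04). No other probe set of these 3 lists was called, and the part of LUM in the results was not tested.

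Transcripts of most of these feedback genes were higher in the HOXA5-overexpressing arrays than in the knock-down arrays. On the brightest probe set of each gene, ETV5 was 11.9-fold, SPRY2 7.10-fold, DUSP4 4.07-fold, DUSP6 3.51-fold, SPRED2 3.50-fold and ETV4 3.25-fold higher. SPRY4 was 1.70-fold, SPRY1 1.39-fold and SPRED1 1.28-fold higher, and DUSP5 was nearly level at 1.07-fold. The brightest probe set was taken over all arrays, so overexpressing values weighed in the choice. On the knock-down arrays alone, other probe sets were brighter for ETV5 (216375_s_at, log2 difference 0.54) and ETV4 (211603_s_at, 0.98). As means over probe sets, log2 differences were 1.58 for ETV5, 1.34 for ETV4, 0.52 for SPRED2, 2.58 for DUSP4 and 3.16 for DUSP6. On the brightest probe sets, the median log2 difference was 1.75 over the 10 genes and -0.02 over all 19775 genes. RNA of a whole culture cannot tell apart fewer cells that express a gene and less RNA per cell.

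In limma's moderated test across all genes, with Benjamini-Hochberg adjustment, 8 of the 10 genes were past an adjusted p of 0.05, all 8 higher, beside 4.77% of all genes in either direction (2.74% higher and 2.03% lower). Among the 24 probe sets, 14 were past it in the fit over all probe sets, all higher, beside 1.97% of all probe sets in either direction (1.36% higher and 0.613% lower). The groups did not overlap in 21 of the 24 probe sets, all higher, beside 43.1% of all probe sets (18.7% higher and 24.5% lower). On the brightest probe sets the groups were apart in all 10 genes, each higher, beside 46.9% of all genes (19.1% higher and 27.8% lower). A log2 difference of at least 1 was reached by 12 of the 24 probe sets, beside 0.833% of all probe sets. On the brightest probe sets it was reached by 6 of the 10 genes, beside 1.04% of all genes. These counts describe genes chosen on this comparison. Of the 10 genes, 5 were past the threshold without knock-down replicate 1, 5 without knock-down replicate 2, 5 without overexpressing replicate 1 and 4 without overexpressing replicate 2. Of the probe sets, 4, 4, 1 and 1 were past it. The 14 probe sets past the threshold with all arrays kept a log2 difference of at least 0.69 (SPRY4) whichever array was left out. Their widest range was 1.19 to 1.95 (ETV5 203348_s_at). Probe sets not past it included 244439_at of SPRED1 (-0.11 to 0.35) and 214026_s_at of SPRED2 (-0.31 to 0.07), which changed sign.

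**Figure D1:**
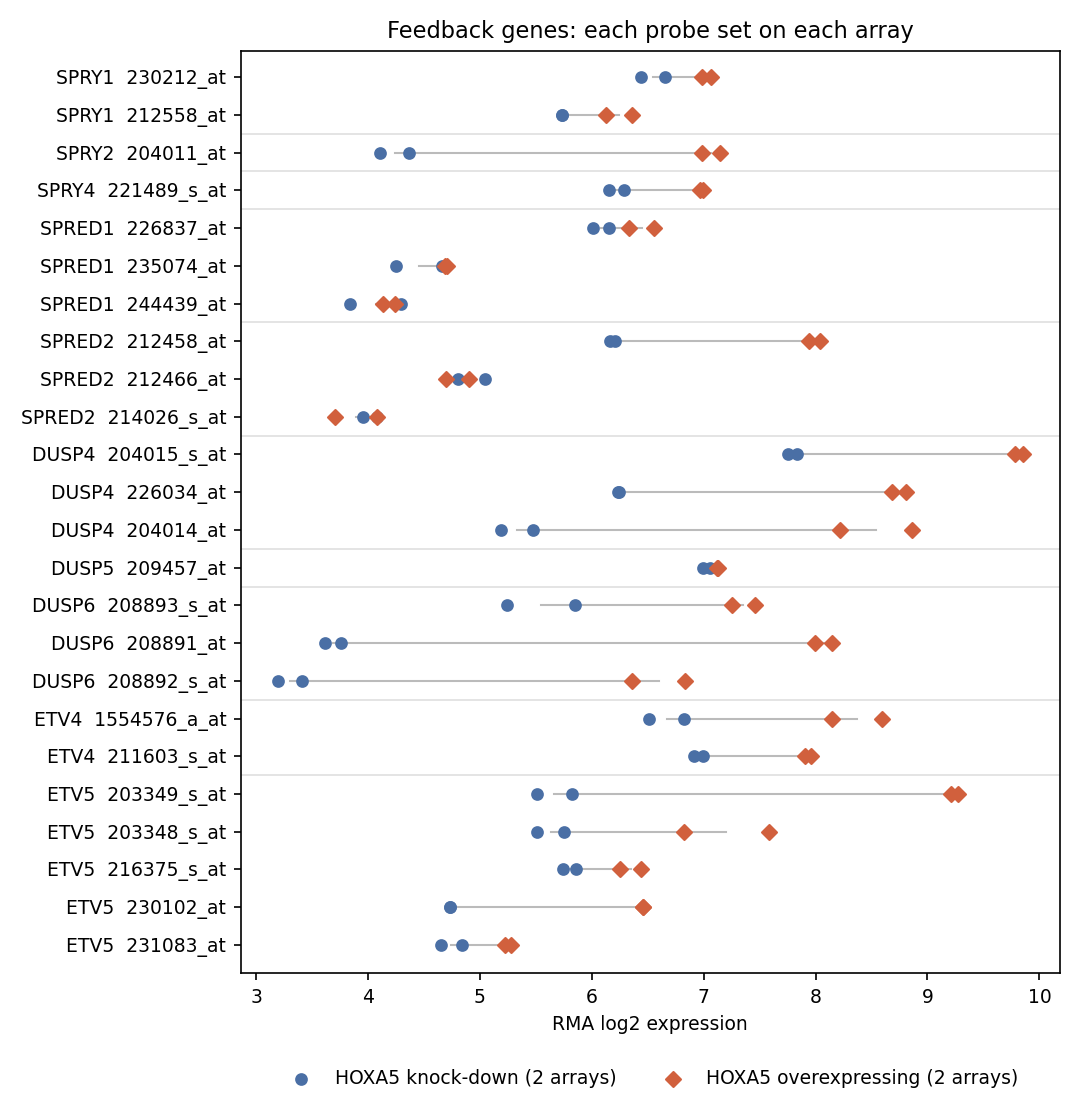
RMA log2 expression (horizontal axis) of the 24 probe sets of the 10 feedback genes on each of the 4 arrays, with grey lines joining the group means. The overexpressing arrays (diamonds) lie above both knock-down arrays (circles) in 21 probe sets, and the groups overlap in 1 probe set of SPRED1 and 2 of SPRED2.

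The phosphatases ranged from 0.10 (DUSP5) to 4.38 (DUSP6) in log2 difference over their probe sets. DUSP6 encodes a cytoplasmic phosphatase selective for ERK and is a classical transcriptional readout of the pathway. Its probe set 208891_at was at 3.76 and 3.62 with knock-down against 8.00 and 8.15 with overexpression. That is a log2 difference of 4.38 ± 0.10 (SE), or 20.9-fold, the largest among the 24 probe sets. Probe set 208892_s_at read 3.41 and 3.20 against 6.84 and 6.36, a difference of 3.29 ± 0.17. The brightest, 208893_s_at, read 5.85 and 5.24 against 7.25 and 7.46, a difference of 1.81 ± 0.20. All 3 probe sets were higher in both overexpressing arrays, but they disagreed on the size by more than their errors. Knock-down values of 208891_at and 208892_s_at were near the bottom of the scale: 18.0% and 16.4% of all probe sets lay below the former on the 2 arrays, and 13.4% and 10.6% below the latter. RMA gives no detection call, so whether these low values lay above background is not known, and the folds from them are uncertain.

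DUSP4 encodes an inducible nuclear phosphatase of ERK and of the related stress kinases. Its brightest probe set, 204015_s_at, was at 7.83 and 7.75 with knock-down against 9.78 and 9.85 with overexpression, a difference of 2.02 ± 0.08 (SE). Probe set 226034_at read 6.23 and 6.24 against 8.69 and 8.81, a difference of 2.51 ± 0.09. Probe set 204014_at read 5.19 and 5.48 against 8.21 and 8.86, a difference of 3.20 ± 0.22. The gap between groups exceeded the largest gap between replicates on all 3 probe sets, and the brightest probe set gave the smallest difference, as it did for DUSP6. DUSP5, which encodes a nuclear phosphatase specific for ERK, has 1 probe set. It was at 7.05 and 6.99 against 7.13 and 7.12, a difference of 0.10 ± 0.08. The groups of DUSP5 did not overlap, but the difference was close to its error.

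Promoter sequence is shown for DUSP6, because it has the largest difference of these probe sets and was the one promoter examined with 2 copies of a binding motif of Capicua (CIC), a repressor that ERK signalling inactivates. RefSeq promoter windows of 300 bases, from 250 before to 50 after a gene start (GRCh38.p14), were held for 6 of the 10 genes: SPRY1 (2 windows), SPRY2 (3), SPRY4, SPRED1, SPRED2 (2) and DUSP6. DUSP4, DUSP5, ETV4 and ETV5 had none in the table. On both strands, the CIC octamers TGAATGAA, TGAATGGA, TCAATGAA and TCAATGGA were searched. They occurred in the window of DUSP6 and in no other of these 10, beside 3.77% of all 35116 windows with at least 1 match and 0.327% with 2 or more. The stretch below is the minus strand of chr12:89352493-89352751, read 5′ to 3′ from 250 bases before the start to the ninth base of the transcript. Capitals mark the octamers, which are the reverse complement of TCAATGGA and begin 24 bases before the start and at base 2 of the transcript.
DUSP6: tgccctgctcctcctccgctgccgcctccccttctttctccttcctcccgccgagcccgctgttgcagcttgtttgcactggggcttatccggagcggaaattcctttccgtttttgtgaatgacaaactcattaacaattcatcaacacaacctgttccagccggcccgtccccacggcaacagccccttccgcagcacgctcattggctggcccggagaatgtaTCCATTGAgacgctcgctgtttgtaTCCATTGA

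The ETS and AP-1 motifs each matched in 1 of the 10 windows, near their share of all windows. The ETS motif CCGGAAG matched in 1 window of SPRY1, at its downstream start, beside 10.3% of all windows, and the AP-1 motif TGANTCA matched at 2 places in 1 window of SPRED2, also at its downstream start, beside 7.71% with a match and 0.515% with 2 or more. The first match of each is shown with 11 bases on either side, as the pair of genes with another match, with the motif in capitals. The SPRY1 stretch is chr4:123398308-123398336 on the plus strand, with its match 67 bases before the start. The SPRED2 stretch is chr2:65366767-65366795 on the minus strand, with its match 6 bases before the start.
SPRY1: gccctccgcagCCGGAAGggggccgcggg
SPRED2: taaccctcggaTGACTCAtccggtacaat

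The cyclic AMP response element TGACGTCA, the TCF/LEF motif ATCAAAG, the homeodomain motif TAATTA and the CArG box had no match in the 10 windows, beside 1.85%, 2.62%, 4.84% and 1.29% of all windows. No match says only that these letters are not in these windows.

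Among the Sprouty genes, SPRY2 stood out by size. Sprouty proteins are membrane-associated inhibitors of receptor tyrosine kinase signalling. The single probe set of SPRY2 was at 4.11 and 4.37 with knock-down against 7.15 and 6.99 with overexpression, a log2 difference of 2.83 ± 0.12 (SE). Of all probe sets, 22.8% and 26.8% lay below it on the knock-down arrays and 71.4% and 68.9% on the overexpressing arrays. SPRY2 was in the lower part of the scale with knock-down and above the middle with overexpression. SPRY4 was at 6.29 and 6.15 against 7.00 and 6.97, a difference of 0.76 ± 0.09. SPRY1 was at 6.44 and 6.65 against 7.06 and 6.99 on its brightest probe set and at 5.74 and 5.73 against 6.13 and 6.36 on the other, with differences of 0.48 ± 0.10 and 0.51 ± 0.10. The 2 probe sets of SPRY1 gave like differences, and both groups were apart in each. SPRY1 was past the threshold in the fit by gene and not in the fit by probe set, so its call depends on which fit is used.

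The SPRED genes encode Sprouty-related membrane proteins that recruit neurofibromin to RAS. SPRED2 was at 6.16 and 6.20 with knock-down against 7.94 and 8.04 with overexpression on its brightest probe set, 212458_at, a difference of 1.81 ± 0.09 (SE). Its weaker probe sets overlapped between groups: 212466_at read 5.04 and 4.80 against 4.91 and 4.70, and 214026_s_at read 3.96 and 4.08 against 4.09 and 3.70, with differences of -0.12 ± 0.12 and -0.12 ± 0.14. Of the 3 probe sets of SPRED2, 1 showed the difference. As the mean of its 3 probe sets the difference was 0.52, which was also past the threshold in the fit by gene. SPRED1 was at 6.16 and 6.01 against 6.34 and 6.55 on its brightest probe set, a difference of 0.36 ± 0.11. Its weaker probe sets differed by 0.24 ± 0.14 and 0.12 ± 0.16. SPRED1 was not past the threshold on any probe set.

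**Figure D2:**
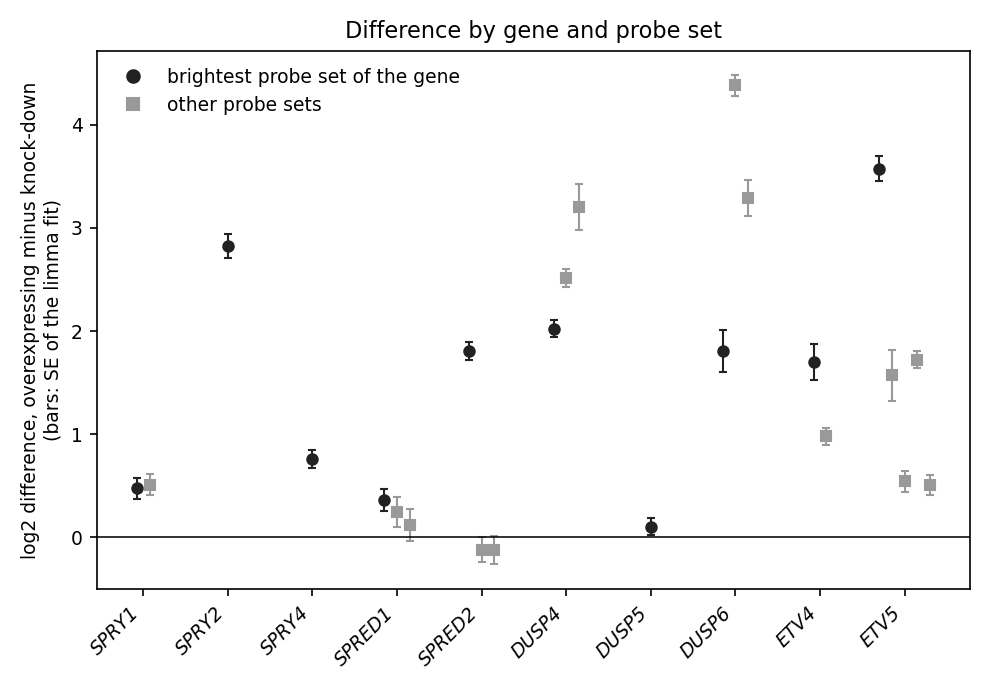
Log2 difference, overexpressing minus knock-down (vertical axis), of each probe set of the 10 genes, with bars for the SE of the limma fit over all probe sets (2 arrays per group); circles mark the brightest probe set of a gene and squares the others. DUSP6 spans 1.81 to 4.38, ETV5 0.51 to 3.58 and SPRED2 -0.12 to 1.81, while both probe sets of SPRY1 lie near 0.5.

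The PEA3-group factors among these genes, ETV4 and ETV5, were both higher. ETV5 has 5 probe sets. Its brightest, 203349_s_at, was at 5.82 and 5.51 with knock-down against 9.21 and 9.27 with overexpression, a difference of 3.58 ± 0.12 (SE) and the largest among the brightest probe sets. Probe set 230102_at read 4.74 in both knock-down arrays and 6.46 in both overexpressing arrays, a difference of 1.72 ± 0.08. Probe set 203348_s_at read 5.52 and 5.75 against 6.83 and 7.58, a difference of 1.57 ± 0.24 with the widest replicate gap among the 24 probe sets, 0.76. The remaining probe sets, 216375_s_at and 231083_at, differed by 0.54 ± 0.10 and 0.51 ± 0.10 and were not past the threshold. All 5 had both overexpressing arrays above both knock-down arrays, with differences from 0.51 to 3.58 on the log2 scale.

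ETV4 was at 6.51 and 6.83 against 8.14 and 8.59 on its brightest probe set, 1554576_a_at, a difference of 1.70 ± 0.18 (SE). Its other probe set, 211603_s_at, read 7.00 and 6.91 against 7.96 and 7.91, a difference of 0.98 ± 0.08. The overexpressing arrays were higher on both probe sets, and the gap between groups was larger than any gap between replicates.

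The named genes closest to ETV5 in pattern, by Euclidean distance between log2 values centred over the 4 arrays, were NELL2 (distance 0.24), MPZL2 (0.25) and TUBB2B (0.27). NELL2 was at 5.73 and 5.69 against 9.36 and 9.50, MPZL2 at 5.55 and 5.36 against 9.18 and 9.33, and TUBB2B at 4.51 and 4.49 against 7.97 and 7.91. With 4 arrays in 2 groups, this distance mainly ranks genes by the size of the group difference.

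Other genes of the pathway were then examined by lists not picked for how they moved, although earlier results of these data were known; SPRY3, SPRED3, CIC, ETV1, MYC, FOSL1 and FOS are named outside the rule, after their values were seen. Counts are on the brightest probe set of each gene in the fit by gene unless stated. The background for a call is 2.74% of all genes higher and 2.03% lower, and 1.36% of all probe sets higher and 0.613% lower. For an unadjusted p under 0.05 the background is 18.6% of all genes. The other MAP kinase phosphatases were nearly level. Of 7 (DUSP1, DUSP2, DUSP7, DUSP8, DUSP9, DUSP10 and DUSP16), 0 passed in limma and 1 had an unadjusted p under 0.05, with a median difference of -0.04 beside -0.02 over all genes. DUSP1, an immediate-early phosphatase that acts mainly on stress kinases, was at 10.80 ± 0.16 and 11.14 ± 0.12 (SD, n = 2), a difference of 0.34 ± 0.11 (SE). DUSP16 was at 8.93 ± 0.02 and 8.97 ± 0.12. None of the 15 probe sets of these genes was called in the limma fit over all probe sets.

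Of 12 genes analysed in the list of other Sprouty, SPRED and receptor feedback genes, 2 rose and none fell, with a median of 0.07. IL17RD, encoding the membrane inhibitor also called SEF, rose 1.84-fold, from 6.38 ± 0.09 to 7.26 ± 0.004 (SD, n = 2, limma adjusted p = 0.0029). FLRT3, encoding a transmembrane protein that binds FGF receptors, rose from 3.82 ± 0.21 to 4.72 ± 0.07 (limma adjusted p = 0.0104). Whether its low knock-down values lay above background is not known, so the size of its rise is uncertain. The remaining family members SPRY3 (difference 0.09) and SPRED3 (-0.09) did not pass. Weaker probe sets differed by 0.09 for IL17RD and 0.29 for FLRT3. Without knock-down replicate 1 the list had 1 rise, without knock-down replicate 2 also 1, and without either overexpressing array it had 0.

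Of 13 genes in the list of other ETS factors and CIC, 3 rose and 1 fell, with a median of 0.15. ATXN1, encoding ataxin-1, a binding partner of CIC, rose by 0.82 ± 0.08 (SE, limma adjusted p = 0.0036). ELK3, a ternary complex factor, rose by 0.61 ± 0.11 (limma adjusted p = 0.035) and ETV3, an ETS repressor, by 0.59 ± 0.08 (limma adjusted p = 0.011). ETS1 fell by 0.42 on the log2 scale (limma adjusted p = 0.043). CIC itself was at 7.60 ± 0.05 and 7.62 ± 0.03 (SD, n = 2), and ETV1, the third PEA3-group gene, at 6.18 ± 0.24 and 6.33 ± 0.10. In the limma fit over all probe sets, ELK3 and ETS1 did not pass (adjusted p = 0.075 and 0.093). ETS2, an ETS activator that differed by 0.23 on its brightest probe set, was called higher there on another, 201328_at (0.82, limma adjusted p = 0.017). In the fit by gene all 4 calls were lost whichever array was left out, with adjusted p up to 0.076 (ATXN1), 0.244 (ELK3), 0.147 (ETV3) and 0.268 (ETS1).

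The kinase relay showed no call on the brightest probe sets, but the adaptor gene GAB1 was called lower on 2 weaker ones. Of 17 genes analysed of the 22 listed from adaptors to MEK and ERK, 0 passed in limma. An unadjusted p under 0.05 was found for 6 of the 17, and the median was -0.08. The brightest, PEBP1, an inhibitor of RAF, differed by 0.12 ± 0.07 (SE) and PTPN11, encoding the phosphatase SHP2, by -0.12 ± 0.08. GAB1, encoding a docking protein that links receptors to SHP2 and RAS, differed by -0.38 on its brightest probe set and was not called there. In the limma fit over all probe sets it was called lower on 229114_at (-1.06, adjusted p = 0.016) and 226002_at (-0.71, adjusted p = 0.040), the only calls among the 52 probe sets of this list. Of 10 ERK effector genes, 0 passed in limma and 1 had an unadjusted p under 0.05, with a median of 0.03. MKNK2, encoding a kinase that ERK activates, differed by 0.23 ± 0.10 and RPS6KA3, encoding the ribosomal S6 kinase RSK2, by -0.07 ± 0.08.

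Other transcripts listed as ERK-dependent were partly higher. Their ERK dependence is prior knowledge, and ERK activity was not measured by these arrays. Of 25 such genes analysed, 8 rose and none fell, with a median of 0.25. CCND1, encoding cyclin D1, rose 3.03-fold, from 8.58 ± 0.09 to 10.19 ± 0.05 (SD, n = 2, limma adjusted p = 2.95e-04). MAFF, a small MAF factor, rose 2.99-fold (limma adjusted p = 8.83e-04) and IER3, an immediate-early gene, 2.96-fold (limma adjusted p = 6.61e-04). PHLDA1, a pleckstrin-like protein used in scores of pathway output, rose 2.46-fold (limma adjusted p = 0.0035), and the zinc finger genes EGR1 and EGR3 rose by 0.69 and 0.50 on the log2 scale. PLAUR (0.48) and EPHA2 (0.46), named to complete the count after their values were seen, were the remaining rises. The transcription factor genes MYC (difference 0.01), FOSL1 (0.26) and FOS (0.42) did not pass (limma adjusted p = 0.97, 0.23 and 0.057). Of the 8 calls, 4 were left without knock-down replicate 1, 4 without knock-down replicate 2 and 3 without either overexpressing array. CCND1, MAFF and IER3 kept theirs in all of these fits. Probe sets disagreed for several genes. HMGA2, encoding a chromatin architectural protein, differed by 0.22 on its brightest probe set and was not called, but in the limma fit over all probe sets 208025_s_at was called higher by 2.35 (adjusted p = 9.06e-04), from low knock-down values of 3.50 and 3.71. EPHA4, an ephrin receptor gene at 0.15 on its brightest probe set, was called higher there on 227449_at (1.21, adjusted p = 0.021), also from low values. EPHA2 did not pass in that fit (adjusted p = 0.068), and PLAUR passed on a weaker probe set but not on its brightest. PHLDA1 spanned 0.16 to 1.96, and the weaker probe set of MAFF gave 0.53. In all, 12 of the 60 probe sets of this list were called higher, from 9 genes, and none lower.

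**Figure D3:**
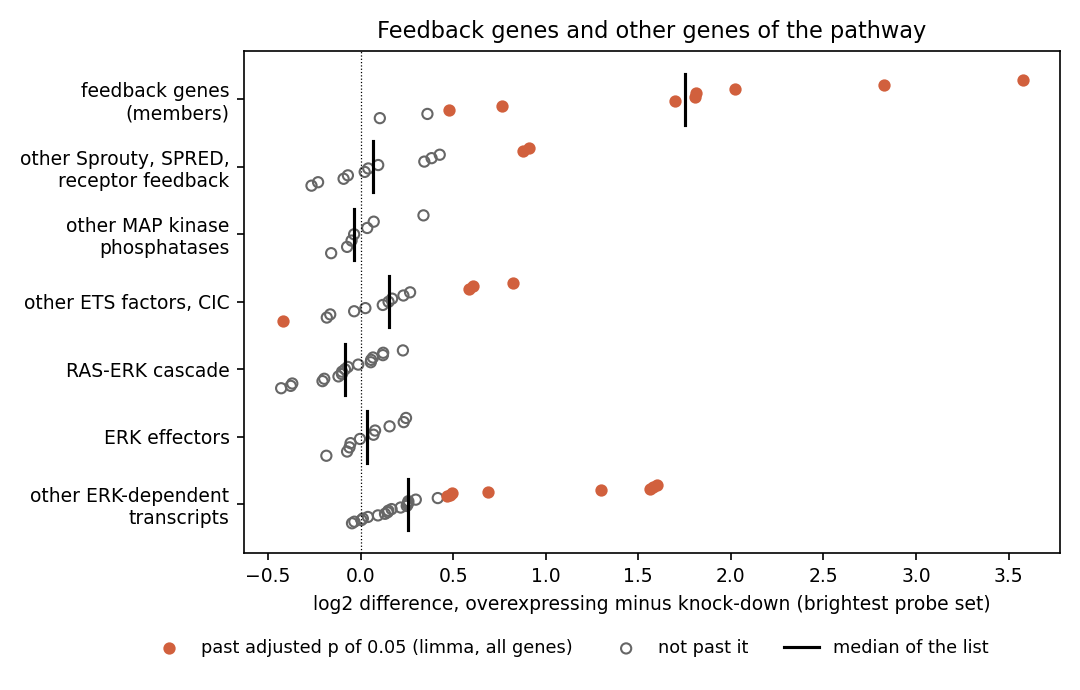
Log2 difference, overexpressing minus knock-down (horizontal axis), of each gene on its brightest probe set, for the 10 feedback genes and 6 lists of other pathway genes; filled points passed an adjusted p of 0.05 in limma over all genes, open points did not, and vertical bars are list medians. The feedback genes have a median of 1.75, while the medians of the other lists lie between -0.08 and 0.25.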

How the data were processed

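Expression was measured on 4 Affymetrix arrays, 1 per sample. The deposited values are log2 expression, made by the authors using RMA (affy), as the submitters' processing notes list; their versions were not given in the sources used here. They were used as deposited. Of 54675 probe sets, 62 controls were left out, 41091 had 1 gene symbol, 1801 several and 11721 none listed; 41037 of these probe sets matched a RefSeq gene. Genes analysed were those with a probe set that carried their symbol alone in the annotation used. A gene was represented by the brightest of these over all arrays. Groups came from the titles. limma (version 3.58.1, R 4.3.3) with the group as sole term was fitted to 19775 genes and to 54613 probe sets, two-sided, with an adjusted p threshold of 0.05. The fit by gene had 2 residual degrees of freedom and a prior worth 4.17. For a single value, 0.333 is the smallest two-sided exact permutation p that 2 against 2 arrays allow. The fitting script was tested on simulated data. It recovered 8% of genes changed by 0.5 on the log2 scale, 92% of those changed by 1 and 100% of those changed by 2. A gene or list without a call may therefore still hold small differences. Whether replicates were separate cultures is not labelled; p-values therefore cover only the spread among these arrays, which may be technical. The members and lists were chosen with earlier results of these data known. Named genes were all members, up to 6 called genes of each other list by absolute difference or else its 2 brightest, and the 3 genes most like the member with the largest difference. HOXA5 and 8 listed pathway genes are not analysed here. Alternatives were a replicate block, an intensity trend, centring, quantile normalization, a filter on dim features, a stricter threshold, averaged probe sets and leaving out each array.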

Additional observations from a re-analysis of the deposited data

How the results depend on the processing

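Array number limits precision: with 2 per group, most calls depend on the variance model. All 10 feedback genes kept differences above 0 in each alternative that tested them, but most alternatives could not change the sign. The block, the trend, the filter and the stricter threshold leave a difference as it is. The groups were apart in all 10 genes on the brightest probe sets, so leaving out any array keeps the sign. The fit by gene called 542 genes higher and 402 lower, and the fit by probe set 743 and 335. With the replicate number as a block (replicate block), these became 345 and 175 genes and 365 and 78 probe sets. The replicate number is a shared number and no known pairing (deviations of same-numbered arrays correlated at 0.15). In that fit 7 feedback genes, 1 receptor feedback gene, no ETS factor that fell and 5 ERK-dependent transcripts passed. With an intensity trend the calls became 889 and 933 genes, and 1451 and 986 probe sets. Of the lists, 5 receptor feedback genes and 1 other phosphatase were then higher and 3 relay genes lower. Centring and quantile normalization each called 1 relay gene lower. Above the median level, 808 genes and 673 probe sets were lower. There 4 of the 5 feedback genes left passed, as did 4 receptor feedback genes higher and 1 lower, and 2 relay genes lower. At an adjusted p of 0.01 there were 268 and 109 genes and 315 and 71 probe sets. Of the lists, 1 receptor feedback gene, 1 ETS gene higher and 0 lower, and 4 ERK-dependent transcripts passed it. With averaged probe sets, 0 ETS genes and 1 relay gene were lower. Leaving out 1 array gave 141 to 194 genes higher and 31 to 49 lower, 14 to 60 probe sets higher and 1 lower, 1 to 4 feedback probe sets, 4 to 5 feedback genes, 0 to 1 receptor-level inhibitors, 0 ETS genes in either direction and 3 to 4 ERK-dependent transcripts. Fewer genes or arrays enter the filtered and left-out fits; otherwise the cause was not tested.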

Other observations

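The remaining genes with DUSP or ETV symbols, a set added after the data were seen, were nearly level between the groups. Of 15, 1 rose and none fell on the brightest probe sets, beside 2.74% of all genes higher and 2.03% lower. Of their 27 probe sets 1 was called, beside 1.97% of all probe sets. The median log2 difference of the 15 genes was -0.06. The gene that rose was ETV6, an ETS repressor, from 7.48 ± 0.003 to 8.04 ± 0.01 (SD, n = 2, limma adjusted p = 0.0105). The phosphatase gene DUSP28 had the lowest difference (-0.17 ± 0.08, SE) and the abundant DUSP14 was at 10.26 ± 0.03 and 10.21 ± 0.02.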
